A study of Mus musculus with 72 samples.

Results

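The BCL2 family of mouse blood was followed through 10 of its genes after neutron or x-ray exposure. The 10 genes were taken by their names on the array and covered the survival members Bcl2, Bcl2l1 (Bcl-xL), Mcl1 and Bcl2l2 (Bcl-w), the pore-forming effector Bak1, and the BH3-only members Bid, Bad, Bmf, Bcl2l11 (Bim) and Bik. Of these 10 genes, 8 had a detected probe and were tested among 16098 genes, out of 31131 gene names on the array, and Bcl2l11 and Bik had none. The brightest detected probe stood for each gene. All levels below are log2 processed signals minus the median of the detected probes on the same array, so that 0 is the signal of the median probe, and all fold changes are differences of these values.

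The samples were 72 whole blood RNAs of male C57BL/6 mice irradiated at 8 to 10 weeks of age, 1 mouse per array, with globin RNA removed. Mice received a broad-spectrum neutron beam, which also carried a gamma-ray component, at 0.25 or 1 Gy, or x-rays at 1 or 4 Gy, and controls were sham-irradiated. Day 1 had 5 controls, 6 mice at 0.25 Gy neutron, 6 at 1 Gy neutron, 6 at 1 Gy x-ray and 5 at 4 Gy x-ray. Day 3 had 5 controls, 6 mice at 0.25 Gy neutron and 5 at 1 Gy x-ray, and day 7 had 6 controls, 5 mice at 0.25 Gy neutron, 6 at 1 Gy neutron, 5 at 1 Gy x-ray and 6 at 4 Gy x-ray. Groups follow the deposited sample titles, applied to the scanner file of each sample. In the authors' own table of these samples 21 of 72 columns followed the array of a sample of another group. For those samples the 2 sources put different arrays under 1 title, and which is right is not known. Each exposure was compared with the controls of its day, so the comparisons of a day share their controls. A gene was called differentially expressed at a limma p below 0.001 with a false discovery rate below 0.05 over all genes tested.

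BCL2 family proteins decide at the mitochondrial outer membrane whether a cell stays alive. The survival members hold Bak and its relative Bax in check, and when BH3-only proteins engage the survival members or the effectors, Bak and Bax open the membrane and cytochrome c is released. Lymphocytes lean on Bcl-2 and Mcl-1, and late erythroid cells on Bcl-xL, whose transcript rises as red cells mature.

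Blood was checked with lists of marker genes, each given as the mean level of its detected genes per array. All 10 reticulocyte genes (young red cells), all 10 T cell, 9 of 10 B cell, 8 of 10 neutrophil and all 8 platelet genes were detected. The reticulocyte level lay at 2.11 to 3.15 in the day 1 controls, at -1.02 to 0.79 at 4 Gy x-ray on day 1, and stood at 4.78 to 5.88 at 1 Gy neutron on day 7 against 2.25 to 3.00 in the controls of that day. The B cell level was below that of every control in all 5 mice at 4 Gy x-ray on day 1 and in all 6 at 1 Gy neutron on day 1, 1 Gy neutron on day 7 and 4 Gy x-ray on day 7. Of 14 liver genes, which blood cells should lack, 6 were detected. Their mean ranged from -1.12 to 6.40 in the day 1 controls and from 7.31 to 8.42 at 4 Gy x-ray on day 1, and it lay at -4.81 to -2.69 in the day 7 controls. A lower level of a transcript in whole blood cannot be told apart, on these arrays, from fewer cells of the type that carries it. The paper reported no significant change in white blood cell makeup or cell death after irradiation. It gave total counts as normal on day 1 and day 7. The marker levels above were not tested against those counts. Scaling mattered as well: centring on the spike-in RNAs in place of the array median moved the median log2 fold change of all genes to between -2.10 (1 Gy neutron, day 7) and 0.41 (1 Gy neutron, day 1) in the comparisons with controls, turned 2970 genes called higher and 2859 called lower at 1 Gy neutron on day 7 into 92 and 11339, and set the day 3 controls 1.79 above those of day 1, and changes are therefore given relative to the median gene. The arrays of 1 Gy neutron on day 7 were also the dimmest, with median intensities of 9.5 to 16.8 against 32.2 to 50.5 in the controls of that day.

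Some comparisons at 1 Gy and above had members called, and which members were called changed between the days. The share of all genes called was also higher at the higher dose of each radiation on day 1 and day 7. The counts of members are therefore not read as a dose pattern of the family. At 0.25 Gy neutron none of the 8 was called on day 1, day 3 or day 7, where 0.00621%, 1.53% and 0.547% of all genes tested were called, and 2, 2 and 1 members had an unadjusted p below 0.05. At 1 Gy neutron 2 members were called on day 1 (Bad and Bcl2l2, both higher, where 16.3% of all genes were called and 5.62% were called higher) and 2 on day 7 (Bcl2l1 higher and Bad lower, where 36.2% were called, 18.4% higher and 17.8% lower). At 1 Gy x-ray none was called on day 1 (6.45%, with 6 members at an unadjusted p below 0.05) or day 3 (1.55%, 1 member), and 1 was called on day 7 (Bcl2l1, higher, against 3.74% called and 2.64% called higher). After 4 Gy x-ray 2 were called on day 1 (Bad and Bcl2l2, both higher, against 29.4% called and 12.8% called higher) and 3 on day 7 (Bcl2 higher, Mcl1 and Bmf lower, against 15.8% called, 7.72% higher and 8.12% lower). The median log2 fold change of the 8 members lay between -0.36 and 0.12 in the 10 comparisons, and that of all genes between -0.09 and 0.01. No direction of a called member against controls turned under another scaling or background correction. With spike-in centring 7 of the 8 members were called lower at 1 Gy neutron on day 7, and Bcl2l1, at 0.73, was the member that was not. Most of all genes tested were called lower there on that scaling, as given above.

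**Figure D1:**
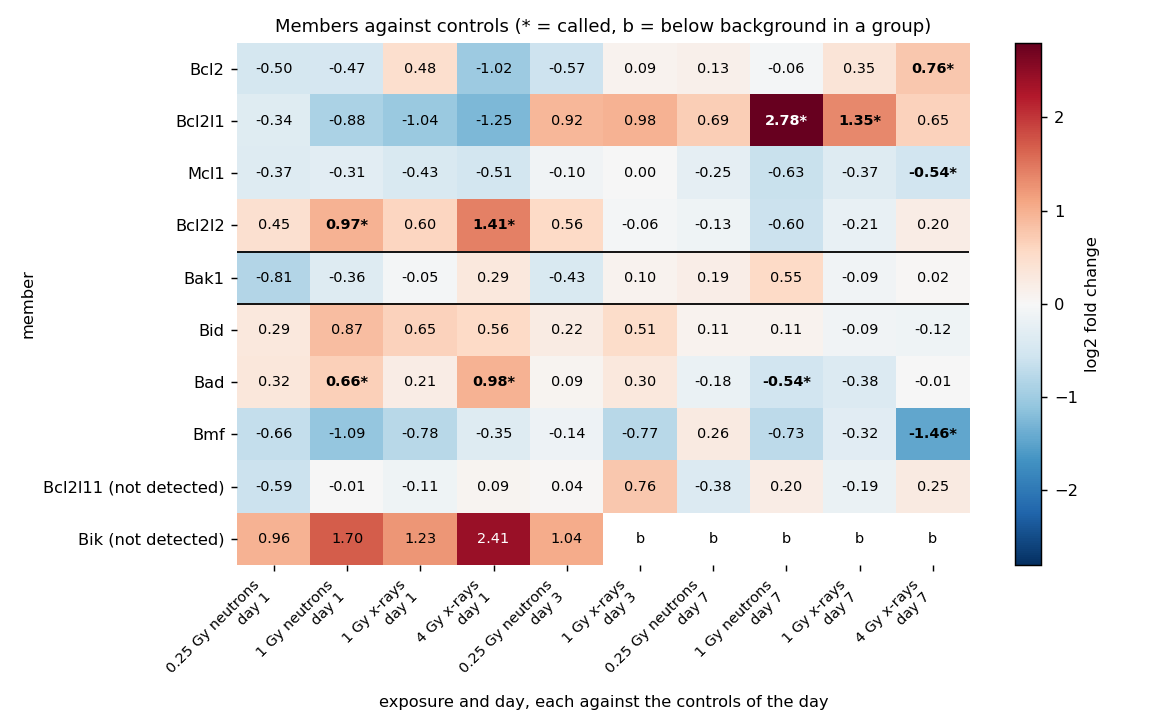
Log2 fold change of each member (rows, ordered as survival members, effector and BH3-only members) against the controls of the day (columns), on the array-median-centred scale; a star marks a member called differentially expressed and b marks a comparison in which a group had no array above background. Bcl2l1 lies below 0 in all day 1 columns and above 0 in all day 3 and day 7 columns, with its highest value, 2.78, at 1 Gy neutron on day 7; with spike-in centring its value at 0.25 Gy neutron on day 7 turns to -0.42.

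Bcl2l1, the gene of the survival protein Bcl-xL, showed the widest range of all members. Its group means spanned 4.27 log2 units, with a mean SD within groups of 0.48, whereas those of Mcl1 spanned 0.63 units with a mean SD of 0.28. In the controls its level was 7.16, 7.52, 7.61, 7.88 and 7.89 on day 1, 6.96, 6.97, 7.64, 7.65 and 7.75 on day 3, and 7.30 to 8.30 with a median of 7.997 on day 7. Controls of different days overlapped, and neither day 3 nor day 7 controls had a member called against day 1 (0% and 4.38% of all genes, with 0 and 1 members at an unadjusted p below 0.05). Spike-in centring called all 8 on day 3, but it set the day 3 controls as a whole above those of day 1.

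On day 1 the level of Bcl2l1 was 6.63 to 7.90 (median 7.35) at 0.25 Gy neutron, 5.63 to 7.65 (median 6.71) at 1 Gy neutron and 5.77 to 7.54 (median 6.34) at 1 Gy x-ray. At 4 Gy x-ray it was 5.18, 5.75, 6.92, 6.97 and 6.99, all below the lowest control, while the other 3 groups overlapped the controls. The log2 fold changes were -0.34, -0.88, -1.04 and -1.25 (SE 0.25, 0.33, 0.30 and 0.36), with adjusted p from 0.011 to 0.52, and none was called. On day 3 the 5 mice at 1 Gy x-ray lay at 8.07, 8.25, 8.44, 8.49 and 8.60, above every control, and 5 of the 6 mice at 0.25 Gy neutron did so too, at 7.44 to 9.58 (median 8.25). Their log2 fold changes were 0.98 (SE 0.21, adjusted p = 0.052) and 0.92 (SE 0.33, adjusted p = 0.13).

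On day 7 Bcl2l1 rose at 1 Gy of either radiation. At 1 Gy neutron its level was 10.04 to 10.99 with a median of 10.78, a fold change of 6.86 (log2 2.78, SE 0.22, adjusted p = 8.7e-07). At 1 Gy x-ray it was 8.84, 9.04, 9.28, 9.32 and 9.58, a fold change of 2.55 (log2 1.35, SE 0.21, adjusted p = 0.0044). Every mouse of both groups was above every control, and the 2 groups did not overlap each other. At 0.25 Gy neutron the level was 8.07, 8.56, 8.58, 8.75 and 8.79, with 4 of 5 mice above the controls (log2 0.69, adjusted p = 0.094), and this difference was -0.42 with spike-in centring and -0.30 with normexp. After 4 Gy x-ray it was 7.75 to 9.21 (median 8.53), with 4 of 6 mice above the controls (log2 0.65, SE 0.24, adjusted p = 0.053). With quantile normalization this difference was 1.23 and called (adjusted p = 0.00021). On that scale it was 1.10 at 1 Gy neutron and 1.06 at 1 Gy x-ray.

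Compared directly on day 7, Bcl2l1 was 2.69-fold higher after 1 Gy neutron than after 1 Gy x-ray (adjusted p = 0.00073), where it was the 1 member called (20% of all genes called, 13.1% higher), and 4.39-fold higher than after 4 Gy x-ray (adjusted p = 8.3e-06), where 3 members were called (37.3% of all genes, 22.7% higher and 14.6% lower). It was 4.25-fold higher than after 0.25 Gy neutron (adjusted p = 1.7e-05), again as the 1 member called (28% of all genes, 16.3% higher). That last difference was 0.66 with quantile normalization, and it was no longer called with spike-in centring (1.15), normexp (1.60) or slide as a block (1.34). In each of the 3 comparisons all 6 neutron mice lay above the other group. The direction against 4 Gy x-ray turned with quantile normalization (-0.12) and spike-in centring (-0.15), and that against 1 Gy x-ray turned with normexp background correction (-0.22) and was 0.04 with quantile normalization. In the order of the 13 group means 1 Gy neutron on day 7 came first and 1 Gy x-ray on day 7 second, both clear of the next group, and each of the other 10 pairs of neighbours overlapped. Further down that order, 4 Gy x-ray on day 7 and 0.25 Gy neutron on day 3 did overlap 1 Gy x-ray on day 7. For the other 9 members all 12 pairs of neighbours overlapped.

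The change between the days was tested by subtracting the effect of an exposure on day 1 from its effect on day 7. For Bcl2l1 it was 3.66 (SE 0.40, adjusted p = 3.5e-07) at 1 Gy neutron, where 3 members were called (24.1% of all genes, 16.1% higher and 7.94% lower), 2.39 (SE 0.38, adjusted p = 0.00024) at 1 Gy x-ray, where 1 member was called (7.19%, 5.05% higher), and 1.89 (SE 0.44, adjusted p = 0.0021) at 4 Gy x-ray, where 4 members were called (19.8%, 11.3% higher and 8.45% lower). At 0.25 Gy neutron it was 1.03 (SE 0.33, adjusted p = 0.13), and no member was called (0.752%, with 3 members at an unadjusted p below 0.05).

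The reticulocyte level moved with Bcl2l1. Against the controls of day 1 its mean differed by -0.36 at 0.25 Gy neutron, -1.45 at 1 Gy neutron, -1.64 at 1 Gy x-ray and -2.52 at 4 Gy x-ray. On day 3 it differed by 0.86 at 0.25 Gy neutron and 0.73 at 1 Gy x-ray. On day 7 it differed by 0.65 at 0.25 Gy neutron, 2.71 at 1 Gy neutron, 1.32 at 1 Gy x-ray and 1.21 at 4 Gy x-ray. With this level as a covariate, an alternative added after seeing the data, the Bcl2l1 difference on day 7 was 0.52 at 1 Gy neutron (adjusted p = 0.78) and 0.26 at 1 Gy x-ray (adjusted p = 0.88). It turned to -0.64 at 4 Gy x-ray on day 7, and on day 1 to 0.18 at 1 Gy neutron, 0.47 at 1 Gy x-ray and 1.10 at 4 Gy x-ray, none of them called. At 1 Gy neutron on day 7 and 4 Gy x-ray on day 1 the reticulocyte levels of exposed mice and controls did not overlap. The fit extrapolates there, and this level and exposure cannot be told apart by it. A second Bcl2l1 probe gave 3.23, 1.55 and 1.26 at 1 Gy neutron, 1 Gy x-ray and 4 Gy x-ray on day 7, and -1.34, -1.31 and -1.70 at the same doses on day 1. The call at 1 Gy neutron was lost with spike-in centring (0.73) and with normexp (1.30), the value was 1.10 with quantile normalization, and 1 of the 6 arrays shared a scan date with the controls, at a difference of 2.18. The call at 1 Gy x-ray was lost with spike-in centring (0.44) and normexp (1.52), and no array of that group shared a scan date with the controls (1.34 with scan date as a random block).

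**Figure D2:**
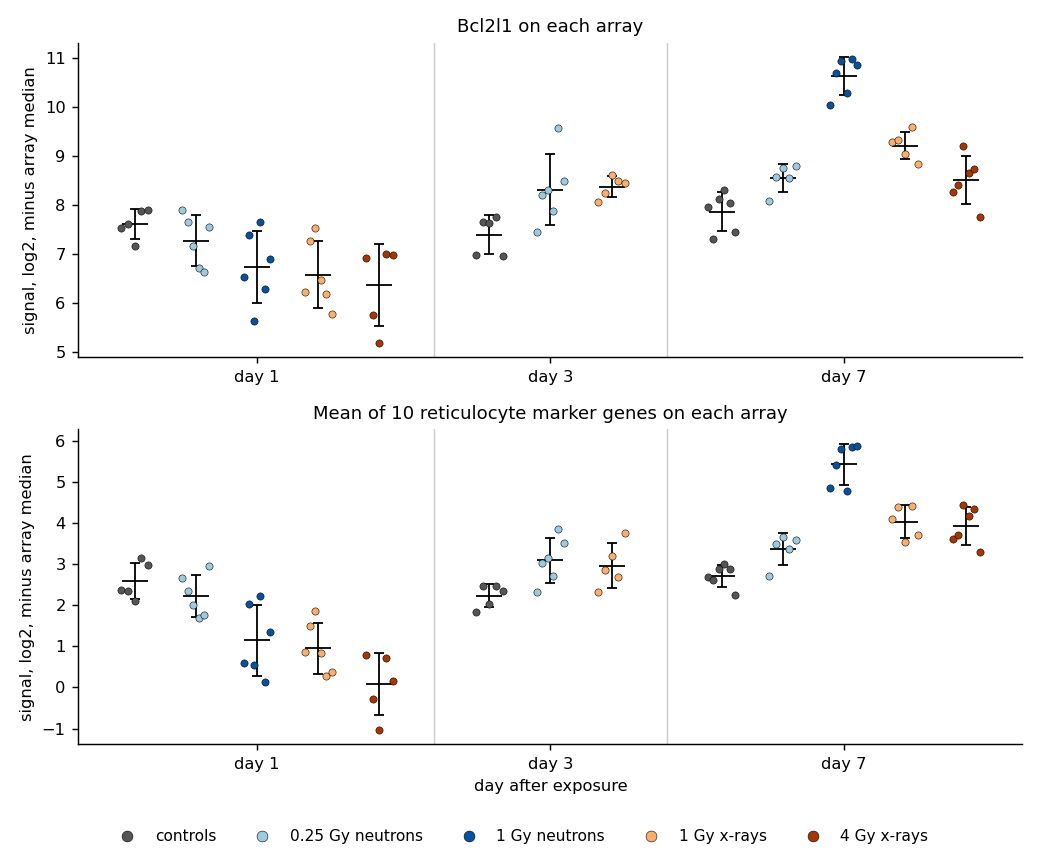
Level of Bcl2l1 and mean level of the 10 reticulocyte genes (both log2, array-median-centred) for each of the 72 arrays, by exposure and day; each point is 1 mouse and bars are group means. Both are lowest at 4 Gy x-ray on day 1 and highest at 1 Gy neutron on day 7, where Bcl2l1 lies between 10.04 and 10.99.

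RefSeq's promoter table (GRCm38.p6) gave 15 start sites for 9 of the 10 members, and none for Bik. The 250 bases before each start site were searched on both strands for AGATAA, a binding motif of the erythroid GATA factors, for GGGCGG, the core of an Sp1 site, and for the p53 half-site consensus. AGATAA was found before 1 start site of 1 member, Bcl2l1, against 9.99% of all 32851 start sites in the table. The 3 upstream windows of Bcl2l1 are shown because its level had the widest range, in lower case with AGATAA in capitals, 5′ to 3′ on the minus strand.
Bcl2l1 start site 1, chr2:152828490-152828739: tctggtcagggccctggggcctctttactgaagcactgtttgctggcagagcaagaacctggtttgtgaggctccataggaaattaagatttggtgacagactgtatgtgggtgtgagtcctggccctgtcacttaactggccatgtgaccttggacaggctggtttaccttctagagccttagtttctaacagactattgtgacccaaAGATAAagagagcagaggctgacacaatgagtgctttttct
Bcl2l1 start site 2, chr2:152830718-152830967: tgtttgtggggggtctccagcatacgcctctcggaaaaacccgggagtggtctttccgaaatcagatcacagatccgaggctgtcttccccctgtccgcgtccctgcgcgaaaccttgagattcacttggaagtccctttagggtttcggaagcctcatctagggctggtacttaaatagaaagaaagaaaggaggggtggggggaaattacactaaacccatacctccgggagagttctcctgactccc
Bcl2l1 start site 3, chr2:152831729-152831978: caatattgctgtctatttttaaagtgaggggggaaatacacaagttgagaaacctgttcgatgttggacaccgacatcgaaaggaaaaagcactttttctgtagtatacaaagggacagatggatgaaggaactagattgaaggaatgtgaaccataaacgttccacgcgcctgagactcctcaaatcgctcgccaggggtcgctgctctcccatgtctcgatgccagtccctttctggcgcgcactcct
The motif starts 41 bases before start site 1, and the other windows of Bcl2l1 hold none of the 3 motifs. A match of letters is a description and not a site of binding.

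Bcl2, which encodes the founding survival protein and is abundant in lymphocytes, differed between the 2 x-ray doses on day 1. On day 1 its level was 0.93, 1.03, 1.45, 1.47 and 1.62 in the controls, 1.52 to 2.34 (median 1.66) at 1 Gy x-ray and -0.63, -0.35, 0.22, 1.04 and 1.11 at 4 Gy x-ray. The x-ray groups did not overlap each other, each overlapped the controls, and neither difference from the controls was called (0.48, adjusted p = 0.089, and -1.02, adjusted p = 0.022). The level was 2.83-fold lower at 4 Gy than at 1 Gy x-ray (log2 -1.50, SE 0.32, adjusted p = 0.0038), where it was the 1 member called (16.1% of all genes, 12.4% lower). It was also lower after 1 Gy neutron, at 0.43 to 1.15 (median 0.90), than after 1 Gy x-ray (log2 -0.95, SE 0.19, adjusted p = 0.0042), again as the 1 member called (9.62%, 8.34% lower). None of the 8 members was called when 1 Gy neutron was set against 4 Gy x-ray on day 1 (0.0311%, with 1 member at an unadjusted p below 0.05), or between the neutron doses on day 1 (1.62%, with 1 such member).

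On day 7 Bcl2 was higher after 4 Gy x-ray, at 0.75 to 1.78 (median 1.56), than in the controls, at 0.43 to 1.08 (median 0.69). The fold change was 1.69 (log2 0.76, SE 0.18, adjusted p = 0.0059), with 5 of 6 mice above every control. The 4 Gy x-ray effect on Bcl2 thus changed by 1.78 between the days (SE 0.38, adjusted p = 0.0011). Bcl2 in the controls was itself lower on day 7 than on day 1 (log2 -0.60, adjusted p = 0.033, not called). Of the 6 day 7 controls 5 were below every day 1 control. The mean was 1.47 at 4 Gy x-ray on day 7, 0.71 in the controls of that day and 1.30 in those of day 1. The other day 7 differences were 0.13, -0.06 and 0.35 at 0.25 Gy neutron, 1 Gy neutron and 1 Gy x-ray, none of them called. The T cell level stood at 0.72 to 2.01 at 4 Gy x-ray on day 1 against 2.61 to 3.24 in the controls and 3.16 to 3.67 at 1 Gy x-ray, and its part in the Bcl2 values was not tested. The day 7 call was lost when 10 of the 12 arrays were left out 1 at a time (0.70 to 0.90). It was also lost with normexp (0.55), the 75th percentile (0.75), no detection filter and the methods' 1.5-fold filter. Slide or replicate number as a block and the reticulocyte level as a covariate (0.46) ended it too. The 4 Gy against 1 Gy difference on day 1 was -0.51 with scan date as a block. Its call was lost with 5 of the 11 arrays left out in turn. The difference between 1 Gy neutron and 1 Gy x-ray on day 1 was no longer called with spike-in centring (-0.61) or scan date as a block (-0.82).

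Mcl1 encodes a short-lived survival protein needed by many blood cells. Its level at 4 Gy x-ray on day 7 was 4.94 to 5.48 (median 5.16) against 5.46 to 5.91 (median 5.74) in the controls, with 5 of 6 mice below every control. It fell by 0.54 on the log2 scale (SE 0.12, adjusted p = 0.0054). After 1 Gy neutron on day 7 it was 4.67 to 5.49 (median 5.10), also with 5 of 6 mice below the controls, a difference of -0.63 that missed the p threshold (adjusted p = 0.0031). It was called there with quantile (-1.20), 75th percentile (-0.78) and spike-in scaling (-2.69), normexp (-1.98) and dim spots as missing. It was not called with the mean of both probes (-0.49), no detection filter, the liver level as a covariate, or scan date, slide or replicate number as a block. Over the 10 comparisons with controls the Mcl1 difference lay between -0.63 and 0.00, and with spike-in centring between -2.69 and 0.18. A second Mcl1 probe differed by -0.04 at 4 Gy x-ray on day 7 and by -0.35 at 1 Gy neutron on day 7. The call at 4 Gy x-ray was lost with 9 of the 12 arrays left out in turn, with quantile normalization (-0.38), spike-in centring (-0.31) and the mean of both probes (-0.29), and with normexp (-0.72), no detection filter, and slide or replicate number as a block.

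Bcl2l2, which encodes the survival protein Bcl-w, rose on day 1 together with Bad. Its level was -1.51, -1.30, -1.27, -1.22 and -0.93 in the day 1 controls, -0.73 to 0.38 (median -0.39) at 1 Gy neutron and -0.31, -0.26, 0.18, 0.51 and 0.70 at 4 Gy x-ray. Both exposed groups lay above every control. The fold changes were 1.95 (log2 0.97, SE 0.21, adjusted p = 0.0044) and 2.66 (log2 1.41, SE 0.22, adjusted p = 0.0004). After 1 Gy x-ray on day 1 the level was -0.99 to -0.43 (median -0.50), with 4 of 6 mice above the controls (log2 0.60, adjusted p = 0.023, not called).

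On day 7 Bcl2l2 was -2.29 to -1.48 (median -1.91) at 1 Gy neutron and -1.80 to -0.87 (median -1.22) in the controls, and 5 of the 6 neutron arrays measured it above background. That difference of -0.60 was not called (adjusted p = 0.014), and it turned to 0.54 with normexp and to 0.13 with the reticulocyte level as a covariate. The level was 1.74-fold lower than after 4 Gy x-ray (log2 -0.80, SE 0.16, adjusted p = 0.00073), a direction that turned with normexp (0.34). The effect changed between the days by -1.57 at 1 Gy neutron (SE 0.28, adjusted p = 0.00012, but -0.059 and not called with normexp) and by -1.21 at 4 Gy x-ray (SE 0.26, adjusted p = 0.0012, but -0.64 and not called with normexp). A second Bcl2l2 probe gave 0.60 at 1 Gy neutron and 1.25 at 4 Gy x-ray on day 1.

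Bak1 encodes a pore-forming effector. It was not called in any comparison, and its largest difference from controls was at 0.25 Gy neutron on day 1. There the level was 0.59 to 1.56 (median 1.24) against 1.57, 1.80, 2.03, 2.23 and 2.30 in the controls. All 6 mice were below every control, by 0.81 on average (log2 -0.81, SE 0.21, adjusted p = 0.19). After 1 Gy neutron on day 7 it was 1.89 to 2.91 (median 2.46) against 1.18 to 2.30 (median 1.96), a difference of 0.55 (adjusted p = 0.033, not called) that became -1.50 with spike-in centring.

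Bid, the BH3-only protein that links death receptors to mitochondria when caspase-8 cuts it, was above every day 1 control after both 1 Gy exposures without being called. Its level was 1.32, 1.49, 1.52, 1.54 and 1.55 in the controls, 1.65 to 2.77 (median 2.45) at 1 Gy neutron and 1.58 to 2.69 (median 2.12) at 1 Gy x-ray. The differences were 0.87 (SE 0.20, adjusted p = 0.0066) and 0.65 (SE 0.18, adjusted p = 0.033). After 4 Gy x-ray on day 1 it was 1.33, 1.56, 2.33, 2.39 and 2.59 (log2 0.56, adjusted p = 0.071). With the reticulocyte level as a covariate Bid was called on day 1 at 1 Gy neutron (1.37), 1 Gy x-ray (1.33) and 4 Gy x-ray (1.92), and at 1 Gy neutron it was also called with spike-in centring (1.36), the liver level as a covariate (1.004) and slide as a block (0.87). At 4 Gy x-ray on day 1 the reticulocyte levels of exposed mice and controls did not overlap, so that fit extrapolates. On day 7 its differences lay between -0.12 and 0.11.

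Bad, a BH3-only protein that growth factor signals silence by phosphorylation, was the member called most often against controls, higher on day 1 and lower on day 7. On day 1 its level was 1.40, 1.51, 1.61, 1.85 and 1.901 in the controls, 2.06 to 2.45 (median 2.40) at 1 Gy neutron and 2.13, 2.63, 2.64, 2.89 and 2.91 at 4 Gy x-ray. Every mouse of both groups was above every control. The fold changes were 1.58 (log2 0.66, SE 0.14, adjusted p = 0.0038) and 1.97 (log2 0.98, SE 0.19, adjusted p = 0.0012). At 1 Gy x-ray the level was 1.48 to 2.18 (median 1.97) and overlapped the controls (log2 0.21, adjusted p = 0.40).

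On day 7 Bad was 1.15 to 1.54 (median 1.35) at 1 Gy neutron, all 6 mice below the controls at 1.72 to 2.03 (median 1.93). It fell by 0.54 on the log2 scale (SE 0.12, adjusted p = 0.0014). At 1 Gy x-ray on day 7 the level was 1.25, 1.52, 1.54, 1.62 and 1.70, also below every control (log2 -0.38, SE 0.12, adjusted p = 0.071, not called), and at 4 Gy x-ray it was 1.73 to 2.08 (log2 -0.01). The level after 1 Gy neutron was lower than after 4 Gy x-ray (log2 -0.53, SE 0.12, adjusted p = 0.0019). That call was lost with 9 of the 12 arrays left out in turn (-0.56 to -0.49). The effect changed between the days by -1.20 at 1 Gy neutron (SE 0.17, adjusted p = 5.7e-06) and by -0.996 at 4 Gy x-ray (SE 0.20, adjusted p = 0.00054). A second, dimmer Bad probe gave 0.33 and 0.44 at 1 Gy neutron and 4 Gy x-ray on day 1, but 0.22 at 1 Gy neutron on day 7, so the probes disagreed in direction there. The day 7 call against controls was lost with the mean of both probes (-0.16) and with 7 of the 12 arrays left out in turn (-0.58 to -0.50), and with scan date (-0.495), slide (-0.56) or replicate number as a block.

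The liver level stood beside the day 1 calls of Bad and Bcl2l2. It was 7.31 to 8.42 at 4 Gy x-ray and -1.20 to 7.70 (median 6.88) at 1 Gy neutron, against -1.12 to 6.40 (median 4.09) in the controls. With the liver level as a covariate, an alternative added after seeing the data, the differences were 0.95 for Bad and 1.10 for Bcl2l2 at 4 Gy x-ray (adjusted p = 0.056 and 0.047) and 0.68 and 0.78 at 1 Gy neutron (adjusted p = 0.0088 and 0.012), all above the p threshold of 0.001. On day 1 each of the 2 calls at 1 Gy neutron was also lost with 6 of the 11 arrays left out in turn, and in the 4 arrays that shared the controls' scan date the differences were 0.67 for Bad and 0.94 for Bcl2l2. Neither was called with scan date or with replicate number as a block. Normexp ended all 4 calls of day 1 (0.61 for Bad and 0.84 for Bcl2l2 at 4 Gy x-ray), and quantile normalization ended both calls of Bad (0.53 and 0.71). No array of 4 Gy x-ray shared a scan date with the day 1 controls.

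The windows before start site 1 of Bad and before the start site of Bcl2l2 are shown for the pair that rose together, on the plus strand, with GGGCGG or its reverse complement in capitals.
Bad start site 1, chr19:6941611-6941860: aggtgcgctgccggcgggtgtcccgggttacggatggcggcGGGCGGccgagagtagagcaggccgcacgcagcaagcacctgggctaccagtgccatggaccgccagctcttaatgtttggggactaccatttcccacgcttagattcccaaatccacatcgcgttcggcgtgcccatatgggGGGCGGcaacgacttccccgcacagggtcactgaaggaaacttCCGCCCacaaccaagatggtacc
Bcl2l2 start site 1, chr14:54883175-54883424: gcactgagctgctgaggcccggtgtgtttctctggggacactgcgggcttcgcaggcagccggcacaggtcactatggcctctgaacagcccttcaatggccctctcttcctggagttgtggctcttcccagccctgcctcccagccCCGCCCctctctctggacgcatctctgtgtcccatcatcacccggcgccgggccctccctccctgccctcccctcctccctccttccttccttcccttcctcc
GGGCGG was found 3 times in the first window and 1 time in the second. It was found before 7 of the 15 start sites, of 6 members, and before 32.7% of all start sites in the table. The p53 half-site consensus was found before 1 start site of 1 member, Bmf, and before 7.13% of all start sites.

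Bmf, a BH3-only protein held at the cytoskeleton until stress frees it, fell after 4 Gy x-ray on day 7. Its level was -0.02 to 1.45 (median 0.52) against 1.32 to 2.43 (median 2.05) in the controls, and 5 of 6 mice were below every control. The fold change was 2.75 downward (log2 -1.46, SE 0.26, adjusted p = 0.0012). It was lower there than after 1 Gy x-ray, at 1.30, 1.504, 1.64, 1.99 and 2.09 (log2 -1.13, SE 0.26, adjusted p = 0.011), where it was the 1 member called (7.81% of all genes, 4.13% lower), although spike-in centring left a difference of 0.012 with the sign turned. On day 1 Bmf was 0.01 to 1.44 (median 1.09) at 1 Gy neutron and 0.68 to 1.45 (median 1.21) at 1 Gy x-ray against 1.39, 1.86, 1.98, 2.00 and 2.38 in the controls. In both groups 5 of 6 mice were below every control, with differences of -1.09 (adjusted p = 0.0094) and -0.78 (adjusted p = 0.018) that missed the p threshold. Both were called with quantile normalization (-1.21 and -0.89) and the 75th percentile (-1.25 and -0.88), and the first also with slide as a block (-1.08). Spike-in centring, normexp and the mean of probes called neither.

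The B cell level moved with Bmf in part. After 4 Gy x-ray it was -0.91 to -0.28 on day 7 against 2.09 to 2.42 in the controls, and -2.32 to -1.27 on day 1 against 2.03 to 2.76, where the Bmf difference was -0.35 (adjusted p = 0.20). Its part in the Bmf values was not tested. All 6 arrays of 4 Gy x-ray on day 7 carried 1 scan date and all 6 controls another, so scan date and exposure cannot be told apart in the calls of Bcl2, Mcl1 and Bmf. The Bmf call was lost with spike-in centring (-1.23) and normexp (-1.20), and its difference between the x-ray doses was lost with 9 of the 11 arrays left out in turn (-1.31 to -1.02).

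**Figure D3:**
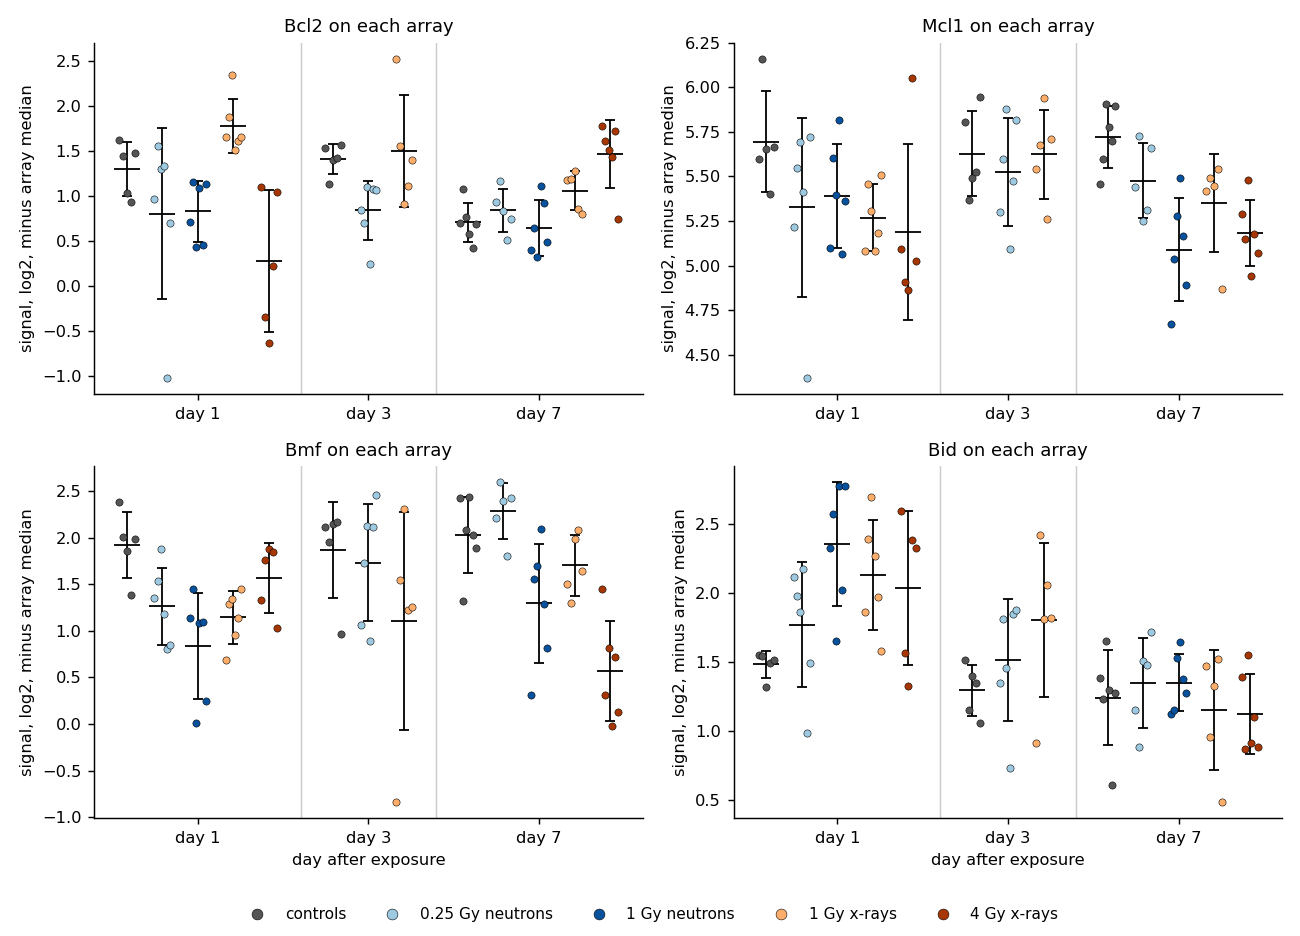
Levels of Bcl2, Mcl1, Bmf and Bid (log2, array-median-centred) for each array, by exposure and day; each point is 1 mouse and bars are group means. At 4 Gy x-ray on day 7 Bcl2 lies at 0.75 to 1.78, Mcl1 at 4.94 to 5.48 and Bmf at -0.02 to 1.45, and each group overlaps its controls by 1 mouse.

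Bcl2l11, whose product Bim removes lymphocytes deprived of survival signals, and Bik, a BH3-only protein of the endoplasmic reticulum, were dim. The brighter Bcl2l11 probe was well above background on 49 of 72 arrays, and its differences from controls, fitted without the detection filter, lay between -0.59 and 0.76. Bik was well above background on 24 of 72 arrays. On day 1 it passed on 5 of 5 arrays at 4 Gy x-ray, 5 of 6 at 1 Gy neutron and 3 of 6 at 1 Gy x-ray, and on 1 of 5 controls. Its level at 4 Gy x-ray was -4.63, -4.03, -3.52, -2.58 and -2.53 against -6.69, -6.59, -6.16, -5.71 and -4.21 in the controls, and no fold is given since 4 of those 5 controls were not well above background. On day 7 it passed on 4 of 6 arrays at 4 Gy x-ray and 0 of 6 controls, at least 1.23-fold higher (adjusted p = 0.016 without the filter), and on no array at the other day 7 exposures, which gives no fold there.

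The balance of the family was described per array as the mean level of the 4 survival members minus that of the 4 detected death members, a difference in which the array centring cancels. Quantile normalization and normexp do not cancel in it, and the balance was not computed with them. Its mean was 1.58 (SD 0.08, n = 5) in the day 1 controls and 0.87 (SD 0.35, n = 5) at 4 Gy x-ray on day 1, where all 5 mice were below every control. On day 7 it was 1.49 (SD 0.18, n = 6) in the controls, 2.02 (SD 0.15, n = 6) at 1 Gy neutron, 1.99 (SD 0.14, n = 5) at 1 Gy x-ray and 2.15 (SD 0.17, n = 6) at 4 Gy x-ray. In that order 5 of 6, 4 of 5 and 6 of 6 mice were above every control, and at 0.25 Gy neutron none of 5 was.

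Without Bcl2l1 the balance split the day 7 groups. After 1 Gy neutron it lay below the controls (-0.28, SE 0.10, with 3 of 6 mice below every control), and after 4 Gy x-ray above them (0.53, SE 0.10, with 6 of 6 mice above). At 1 Gy x-ray it differed by 0.14 (SE 0.12). At 4 Gy x-ray on day 7 the largest difference in the sum was that of Bmf (-1.46). The others were 0.76 for Bcl2, -0.54 for Mcl1, 0.20 for Bcl2l2, -0.12 for Bid, 0.02 for Bak1 and -0.01 for Bad. The balance was not computed without Bmf, and scan date and exposure cannot be told apart in that group. Single members moved with the processing at 1 Gy neutron on day 7. With normexp Mcl1 differed from controls by -1.98, Bcl2l2 by 0.54 and Bak1 by -0.45, and with quantile normalization Bcl2l1 differed by 1.10. After 4 Gy x-ray on day 1 the balance without Bcl2l1 stayed below the controls, by -0.41 (SE 0.10), in all 5 mice. The members were chosen with earlier results known, so no p is given for these sums.

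**Figure D4:**
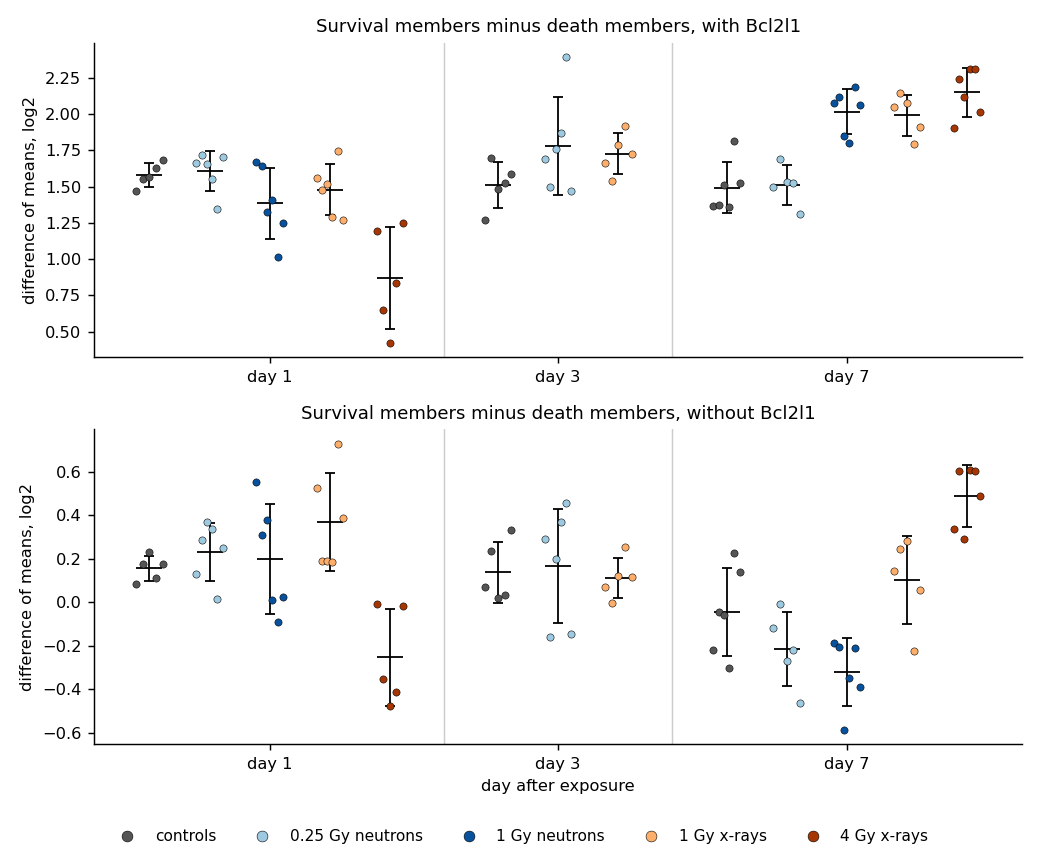
Mean level of the 4 survival members minus that of the 4 detected death members per array, with and without Bcl2l1 (log2 units), by exposure and day; each point is 1 mouse and bars are group means. With Bcl2l1, 1 Gy neutron on day 7 averages 2.02 against 1.49 in its controls, and without it -0.32 against -0.04.

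Around the 10 members, 3 lists of pathway genes were read from the same fits. Of 16 other BCL2 family genes 10 were tested. They were called in 5 of the 10 comparisons with controls. At 1 Gy neutron these were 2 higher and 1 lower on day 1 (16.3% of all genes called) and 1 higher and 2 lower on day 7 (36.2%). The x-ray comparisons had 2 higher at 1 Gy on day 1 (6.45%), 2 higher and 1 lower at 4 Gy on day 1 (29.4%), and 1 higher at 4 Gy on day 7 (15.8%). Bax, the partner of Bak1 and a classical p53 target, rose by 0.82, 0.96 and 0.97 (log2, adjusted p = 0.0026, 0.0076 and 0.002) at 1 Gy neutron, 1 Gy x-ray and 4 Gy x-ray on day 1, and by 0.63 (adjusted p = 0.0051) at 4 Gy x-ray on day 7.

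All 17 genes of the mitochondrial death pathway, from channels to caspases and their inhibitors, were tested. At 4 Gy x-ray on day 1, 5 of the 17 were called higher and 1 lower (29.4% of all genes called, 12.8% higher), with a median of 0.61 against -0.09 over all genes. After 1 Gy neutron on day 7 none was higher and 3 were lower, beside 17.8% of all genes called lower, with a median of -0.46 against -0.05. After 4 Gy x-ray on day 7, 1 was higher and 3 were lower, beside 7.72% and 8.12% of all genes. Vdac1, a channel of the outer mitochondrial membrane, rose by 0.85, 0.81 and 1.44 (adjusted p = 0.0036, 0.0088 and 5.3e-05) at 1 Gy neutron, 1 Gy x-ray and 4 Gy x-ray on day 1. Birc3, which encodes the caspase and NF-kB regulator cIAP2, was lower at 1 Gy neutron on day 1 and day 7 (-1.05 and -1.02) and at 4 Gy x-ray on day 1 and day 7 (-1.41 and -0.84), with adjusted p from 5.4e-05 to 0.0018.

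Of 18 regulators of BCL2 family proteins 15 were tested. They were called at 1 Gy neutron on day 1 (3 lower, beside 16.3% of all genes called) and day 7 (1 higher, 3 lower, beside 36.2%) and at 4 Gy x-ray on day 1 (1 higher, 3 lower, beside 29.4%) and day 7 (1 lower, beside 15.8%), and in no other comparison with controls. Foxo1, a transcription factor of Bim and other BH3-only genes, was lower at 1 Gy neutron on day 1 (-1.30), 4 Gy x-ray on day 1 (-1.42) and 1 Gy neutron on day 7 (-0.85). Il7r, the receptor chain through which lymphocytes maintain Bcl-2, was lower in the same comparisons (-1.09, -2.19 and -0.80), and it is one of the T cell markers above. Btrc, a substrate receptor of the SCF ubiquitin ligase, was lower at 1 Gy neutron on day 1 (-1.20) and at 4 Gy x-ray on day 1 (-1.28) and day 7 (-0.97).

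Likeness to each member was described by Pearson's r over the 13 group means among the 16098 genes, whose groups share depth, scan dates and centring. Bcl2l1 was most like Ube2e3 (0.997), Smap1 (0.996) and Cir1 (0.993). Bid was most like Hacd4 (0.991), Coa5 (0.989) and Ssx2ip (0.984), and Bcl2l2 like Ggcx (0.987), St7l (0.986) and Tmed4 (0.985). The nearest to Bad were Dpcd (0.971), Homer1 (0.971) and Pdia6 (0.968). Mcl1 was nearest to Slc37a2 (0.94), Ints6l (0.938) and Noxred1 (0.93), and Bmf to Rab30 (0.914) and Gm15411 (0.899). Bak1 had its nearest at 0.893 (AW061147), 0.878 (Psap) and 0.874 (Ap2b1), and Bcl2 at 0.959 (a transcript without a symbol), 0.928 (Inpp4b) and 0.921 (E2f4).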

How the data were processed

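Blood RNA of 72 mice was hybridized to one-colour Agilent 4x44K mouse arrays. The deposited scanner files hold the intensity of each spot, background-subtracted by Agilent Feature Extraction 12.0.2 per the submitters' processing notes. The authors also deposited a table of log2 values, of which 12 of the 72 columns followed the array of their own sample, 60 followed another array and 21 an array of another group. Groups therefore rest on the sample titles as attached to the scanner files, and the disagreement was not resolved. The table served only as an alternative where both groups kept at least 2 columns that followed their own array.

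Control spots were dropped, spots of a probe averaged, and log2 processed signals centred on each array's median over 19808 of 39429 probes with fewer than 25% of spots flagged or dim on day 1 and day 7. The brightest detected probe stood for a gene. Genes were named through RefSeq accessions for 28330 probes, which changed 1403 names. Groups came from the deposited sample titles, and limma 3.58.1 (R 4.3.3) was run on the groups of each comparison, 2-sided, with calls at p below 0.001 and FDR below 0.05 after Benjamini-Hochberg adjustment over all genes. Each array is a separate mouse, and their number limits the precision. Without the detection filter, all genes were fitted for Bcl2l11 and Bik. The bound for a dim probe set the bright group's mean against the lowest signal well above background on each array.

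Alternatives were quantile, 75th percentile and spike-in scaling, normexp with an offset of 50, no filter, dim spots as missing, the mean of probes, the methods' 1.5-fold filter, scan date, slide or replicate number as a block, the authors' table, and each array left out. Scripts were tested on simulated data. All 10 members were named in every comparison, pathway genes if called in 3 or more of the 10 comparisons with controls, and the 3 most like genes per member, of which 1 is not reported here. Members, lists and motifs were chosen with earlier results of these data known.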

Additional observations from a re-analysis of the deposited data

Results flagged for a closer look

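Among 130 groups of member values, 12 held an array far from the rest of its group by Dixon's test, which flags about 1 group in 20 by chance. In the 0.25 Gy neutron group of day 1, replicate 5 was flagged for 4 members, with Bcl2 at -1.03, Mcl1 at 4.37, Bcl2l2 at 0.59 and Bik at -2.18. That array also had the highest liver level of the 72 arrays, 8.73, and the lowest T cell level of its group, 1.30, and without any single array the comparison still called none of the 8 members. In the x-ray groups, replicate 6 of 4 Gy on day 7 had the lowest Bcl2 (0.75), replicate 1 of 1 Gy on day 3 the lowest Bcl2l2 (-3.00), replicate 5 of 1 Gy on day 7 the lowest Mcl1 (4.87) and replicate 4 of 4 Gy on day 1 the highest Mcl1 (6.05), the last beside a neutrophil level of 4.66, the highest of its group. The other flagged values were Bak1 at 0.20 in replicate 5 of 0.25 Gy neutron on day 3, Bik at -7.29 in replicate 4 of 1 Gy neutron on day 1, Bid at 1.32 in replicate 3 of the day 1 controls and Bmf at 0.96 in replicate 5 of the day 3 controls.

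In 8 tests the effect of an exposure differed between day 7 and day 1. At 1 Gy neutron these were Bcl2l1 (3.66), Bad (-1.20) and Bcl2l2 (-1.57), at 1 Gy x-ray Bcl2l1 (2.39), and at 4 Gy x-ray Bcl2 (1.78), Bcl2l1 (1.89), Bad (-0.996) and Bcl2l2 (-1.21).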

How the results depend on the processing

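Counts below are of the 8 members called, in comparisons with controls unless 2 exposures are named. The share of all genes called under each alternative is not given beside them. They describe dependence on the processing and are not results about the family. Spike-in centring in particular shifts all genes of an array together. No member called against controls changed direction under any alternative. Bcl2l1 turned between 1 Gy neutron and 1 Gy x-ray on day 7 with normexp (-0.22) and for 1 Gy neutron against 4 Gy x-ray on day 7 with quantile normalization (-0.12) and spike-in centring (-0.15). Bcl2l2 turned for 1 Gy neutron against 4 Gy x-ray on day 7 with normexp (0.34), and Bmf between the x-ray doses on day 7 with spike-in centring (0.012). The causes were not tested.

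Spike-in centring changed most counts. It gave 2 at 0.25 Gy neutron on day 7, 1 and 7 at 1 Gy neutron on days 1 and 7, 2 at 1 Gy x-ray on day 7, 1 and 1 at 4 Gy x-ray on days 1 and 7, and 8 for day 3 against day 1 controls. Between exposures it gave 0 for 1 Gy neutron against 1 Gy x-ray on day 1, 6 for 1 Gy neutron against 4 Gy x-ray on day 7, 3 for the x-ray doses on day 7, and 1 and 4 for the neutron doses on days 1 and 7. For the change between days it gave 2, 6, 3 and 2 at 0.25 Gy neutron, 1 Gy neutron, 1 Gy x-ray and 4 Gy x-ray. Normexp gave 0 at 1 Gy neutron on day 1, 1 Gy x-ray on day 7 and 4 Gy x-ray on both days, 0 for 1 Gy neutron against 1 Gy x-ray on day 1, 0 for 1 Gy neutron against 4 Gy x-ray and against 0.25 Gy neutron on day 7, 0 for the x-ray doses on day 7, and 1 and 1 for the change between days at 1 Gy neutron and 4 Gy x-ray. Centring on the 75th percentile gave 1 on day 1 at 1 Gy neutron (Bmf, lower), 1 Gy x-ray (Bmf, lower) and 4 Gy x-ray (Bcl2l2, higher). Quantile normalization gave 1 at 1 Gy x-ray on day 1 (Bmf, lower) and 1 on day 3 (Bcl2l1). It gave 1 at 4 Gy x-ray on day 1 (Bcl2l2) and 2 for the neutron doses on day 7. At 4 Gy x-ray on day 7 it called Bcl2l1 and no longer Mcl1. At 1 Gy neutron on day 1 it called Bmf, lower, and no longer Bad.

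The mean of all detected probes gave 0 and 1 at 1 Gy neutron on days 1 and 7, 1 at 1 Gy x-ray on day 3, 1 at 4 Gy x-ray on day 1, 1 for 1 Gy neutron against 4 Gy x-ray on day 7 and 2 for the x-ray doses on day 1. Without the detection filter, 1 was called at 1 Gy neutron on day 7, 1 at 4 Gy x-ray on day 7 and 0 for the x-ray doses on day 7. The 1.5-fold filter left 5 members to test, without Mcl1, Bak1 and Bad, and gave 1 at 1 Gy neutron and 1 at 4 Gy x-ray on both days. Dim spots as missing gave 1 at 1 Gy x-ray on day 3.

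Scan date as a fixed block gave 0 and 1 at 1 Gy neutron on days 1 and 7, 0 for 1 Gy neutron against 1 Gy x-ray on day 1, 0 for the x-ray doses on day 1 and 0 on day 7, and 2 for the neutron doses on day 7. As a random block it gave 1 at 1 Gy x-ray on day 3. It was not run for 0.25 Gy neutron on days 1 and 7, 4 Gy x-ray on day 7 and the controls. Slide as a block gave 4 and 1 at 1 Gy neutron on days 1 and 7, 1 at 1 Gy x-ray on day 3, 1 at 4 Gy x-ray on day 7, 0 for 1 Gy neutron against 1 Gy x-ray on day 1 and 0 for the x-ray doses on both days.

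Replicate numbers did not pair the samples: deviations of same-numbered arrays correlated at -0.53 to 0.64, and in no comparison was every pair above 0.1. The replicate block gave 0 and 1 at 1 Gy neutron on days 1 and 7, 1 at 4 Gy x-ray on day 7, 0 for 1 Gy neutron against 1 Gy x-ray on both days, 1 for 1 Gy neutron against 4 Gy x-ray on day 7 and 0 for the x-ray doses on both days, and it moved no other count.

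With the reticulocyte level as a covariate, chosen after seeing the data, 1 and 0 were called at 1 Gy neutron on days 1 and 7, 1 and 0 at 1 Gy x-ray and 1 and 0 at 4 Gy x-ray. The 1 on day 1 was Bid each time, and Bad (0.57 and 0.71) and Bcl2l2 (0.50 and 0.76) were lost at 1 Gy neutron and 4 Gy x-ray. This fit extrapolates where exposed mice and controls do not overlap in the reticulocyte level. With the liver level, also chosen after seeing the data, the counts were 1 (Bid) and 1 (Bcl2l1) at 1 Gy neutron on days 1 and 7 and 0 at 4 Gy x-ray on day 1.

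Leaving out each array gave 0 to 2 calls at 1 Gy neutron on day 1 and 1 to 3 on day 7, 0 to 2 at 1 Gy x-ray on day 1, 0 to 1 on day 3, 1 to 2 at 4 Gy x-ray on day 1 and 1 to 3 on day 7. Between exposures it gave 2 to 4 for 1 Gy neutron against 4 Gy x-ray on day 7 and, for the x-ray doses, 0 to 2 on day 1 and 0 to 1 on day 7. For the change between days it gave 3 to 4 at 1 Gy neutron, 1 to 2 at 1 Gy x-ray and 4 to 5 at 4 Gy x-ray. No call of Bcl2l1 was lost in this way, and at 4 Gy x-ray on day 1 the call of Bad was lost without control replicate 5 (0.95). Depth is signal over background here, and it limits Bcl2l11 and Bik, which were measured on part of the arrays.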
